A study of Mesocricetus auratus with 8 samples.

Results

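The genes that carry electrical excitation from one ventricular muscle cell to the next were examined in the hearts of 8 female golden hamsters (Mesocricetus auratus). Rows of the count table were taken by gene name, which gave 4 genes of 20360. Gja1 and Gjc1 encode connexins, Tjp1 encodes the scaffold zonula occludens protein of gap junction edges, and Scn4b encodes a beta subunit of voltage-gated sodium channels. All 4 had a mean count of 50 or more over the libraries, as did 10909 genes in all, and these are the genes meant by all genes tested.

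Per the series design, the animals were wild type or had lost heterozygosity at Myh6, which encodes the alpha form of the cardiac myosin heavy chain. They were killed at 25 weeks of age, before dilated cardiomyopathy set in, and polyA RNA of each heart was sequenced as 1 library. The labels name each animal by a code and give none of them a genotype, so no genotypes were compared and the libraries were not used as replicates. Genotype and the spread between animals cannot be told apart here, and the targeted gene was not analysed.

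Ventricular myocytes are coupled end to end at intercalated discs. Sodium channels gathered there produce the upstroke of the action potential, and gap junctions, paired channels built of connexins, let the current pass into the next cell. Gja1 supplies the main connexin of working ventricular muscle and is also made by fibroblasts and smooth muscle. Gjc1 is best known from the developing heart and the conduction system of the mouse. The Tjp1 protein binds the tail of the Gja1 connexin and limits the growth of its plaques. Sodium channel beta subunits do not form the pore but change the gating and the surface level of the channel that does.

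Library totals lay between 13608500 and 15255764 counts, and 3 counts, the most that an observed 0 is compatible with, came to 0.197 to 0.220 CPM. CPM is the usual count scaled to library size, with library totals corrected by the trimmed mean of M-values (TMM). All 10 ventricular cardiomyocyte markers were measured, with summed levels of 54328 to 69055 CPM. Of 9 atrial markers found, 7 passed the filter, with Nppa at 53.2 to 971 CPM, Kcnj3 at 40.5 to 59.8 CPM and Kcnj5 at 3.15 to 32.9 CPM, while Bmp10 was at 0 in all 8 libraries and Sln reached at most 14 counts. The label says heart and names no chamber. In bulk tissue, fewer cells of a type and less RNA per cell cannot be told apart.

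Gja1 was lowest in M5F5 and M5F7, intermediate in M5F55 and higher in the other 5 hearts. Its level was 209 CPM in M5F5 (exact Poisson 95% interval 201 to 216), 217 in M5F7 (209 to 224), 307 in M5F55 (298 to 316), 440 in M5F16, 485 in M5F12, 513 in M5F19, 533 in M5F56 and 535 in M5F22 (523 to 547). The underlying counts ran from 2920 to 7834. The intervals of M5F5 and M5F7 overlapped, as did that of M5F56 with those of M5F19 and M5F22. The other 4 neighbouring steps in this order had intervals that did not overlap.

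The highest heart exceeded the lowest 2.57-fold in Gja1, and the second-highest exceeded the second-lowest 2.46-fold. The first of these is called the full range here and the second the trimmed range. A gene was called by either range when it reached 2-fold and its counts departed from equal relative abundance by a chi-square test with a Benjamini-Hochberg adjusted p under 0.05 over all genes tested. Gja1 passed by both, with a chi-square of 4831, and so did Scn4b, while Gjc1 and Tjp1 passed by neither. Over all genes tested, the full range called 13.9% and the trimmed range 2.85%. Only 102 genes had a wider trimmed range than Gja1. Without M5F5 or without M5F7 the trimmed range of Gja1 was 1.74-fold and the call was lost, because trimming then removes the remaining low heart. The chi-square test and the intervals cover counting error only.

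**Figure D1:**
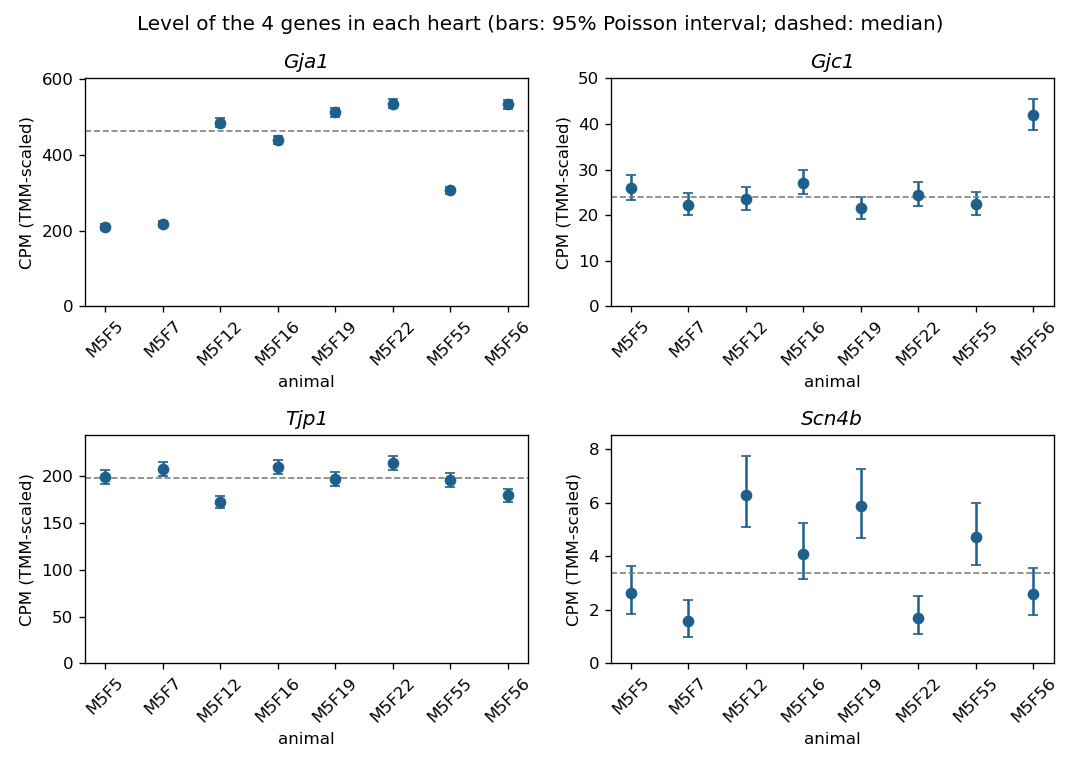
Level of Gja1, Gjc1, Tjp1 and Scn4b (vertical axes, CPM, each from 0) in the 8 hearts, with exact 95% Poisson intervals as bars and the median as a dashed line. Gja1 is low in M5F5, M5F7 and M5F55, Gjc1 is high in M5F56, Tjp1 is nearly level, and the wide intervals of Scn4b come from 23 to 91 counts per library.

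Gjc1 was nearly level in 7 hearts and high in the other. It was at 21.5 CPM in M5F19, 22.3 in M5F7, 22.5 in M5F55, 23.6 in M5F12, 24.5 in M5F22, 25.9 in M5F5 and 27.1 in M5F16, and at 42.0 CPM in M5F56 (95% Poisson interval 38.7 to 45.5). All neighbours in this order had overlapping intervals except M5F16 and M5F56. The full range was 1.95-fold, just under the threshold of 2, and the trimmed range was 1.21-fold. The adjusted p of the chi-square test over all genes was 1.68e-32. With plain total counts in place of TMM the full range was 2.13-fold and the gene was called. Without M5F56 the full range was 0.34 on the log2 scale.

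The 2 connexin genes did not move in proportion. Gja1 took 88.9% of the counts of both in M5F5 and 90.7% in M5F7 (exact Clopper-Pearson 95% interval 89.6 to 91.6%). The share was 92.7% in M5F56, 93.2% in M5F55, 94.2% in M5F16, 95.4% in M5F12, 95.6% in M5F22 and 96.0% in M5F19 (95.5 to 96.4%). The median was 93.7%. The low share in M5F5 and M5F7 came with low Gja1, and that in M5F56 with high Gjc1 beside one of the highest Gja1 levels. These are shares of counts and were not corrected for transcript length, so they do not give the ratio of molecules.

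**Figure D2:**
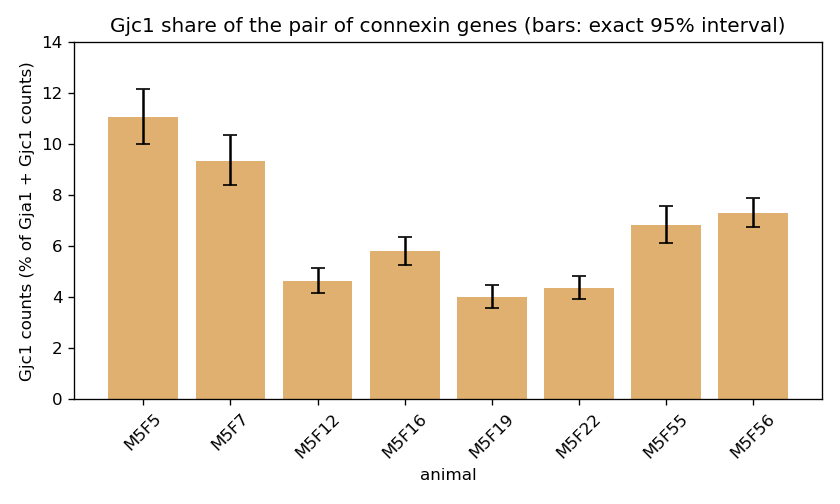
Gjc1 counts as a percentage of Gja1 plus Gjc1 counts (vertical axis, from 0) in each of the 8 hearts, with exact 95% binomial intervals. The share is 11.1% in M5F5 and 9.34% in M5F7 and lies between 4.03% and 7.30% in the other 6.

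Tjp1 was the most even of the 4 genes. It was at 172 CPM in M5F12 (95% Poisson interval 166 to 179), 179 in M5F56, 196 in M5F55, 197 in M5F19, 199 in M5F5, 208 in M5F7, 210 in M5F16 and 214 in M5F22 (206 to 221). The full range was 1.24-fold and the trimmed range 1.17-fold, against medians of 1.45-fold and 1.25-fold over all genes tested. The counts still differed beyond counting error (chi-square test over all genes, adjusted p = 7.14e-20), as they did for 86.4% of genes. The scaffold was therefore near its median in M5F5 and M5F7, where Gja1 stood at 0.451 and 0.468 of its own median.

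M5F12, the heart lowest in Tjp1, was also the lowest in the summed ventricular cardiomyocyte markers (54328 CPM) and the highest in the summed macrophage markers (146 CPM, against 73.1 to 120 in the other 7). Per 1000 counts of the ventricular markers, Tjp1 was at 3.17 counts in M5F12, with a median of 3.10 over the 8 hearts. The divisor was itself lowest in M5F12, which raises the quotient there. The lowest heart on that scale was M5F5, at 2.88 counts. On that scale, chosen after the values were seen, the trimmed range of Tjp1 was 1.06-fold and the full range was 1.24-fold, as with TMM. The part of macrophages or other cells in the level of Tjp1 was not tested.

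Scn4b had the widest spread and the fewest counts. It was at 1.58 CPM in M5F7 (95% Poisson interval 0.999 to 2.36), 1.71 in M5F22, 2.59 in M5F56, 2.64 in M5F5, 4.11 in M5F16, 4.72 in M5F55, 5.87 in M5F19 and 6.31 in M5F12 (5.08 to 7.75). These levels rest on 23 to 91 counts. All 7 pairs of neighbours had overlapping intervals, but the 3 highest hearts lay clear of the 4 lowest. The full range was 3.94-fold and the trimmed range 3.39-fold on the log2 scale with a prior count of 0.5, and only 28 genes had a wider trimmed range. The trimmed range was 2.25-fold without M5F7 and also without M5F22, the lowest hearts, and stayed called. The adjusted p of the chi-square test over all genes was 1.43e-16. With a mean count of 53.6 the gene stood just above the filter of 50. Without M5F12 or without M5F19, its highest hearts, the mean fell to 48.3 or 49.0 and the gene was no longer tested. Genes with few counts reach a wide range more easily.

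**Figure D3:**
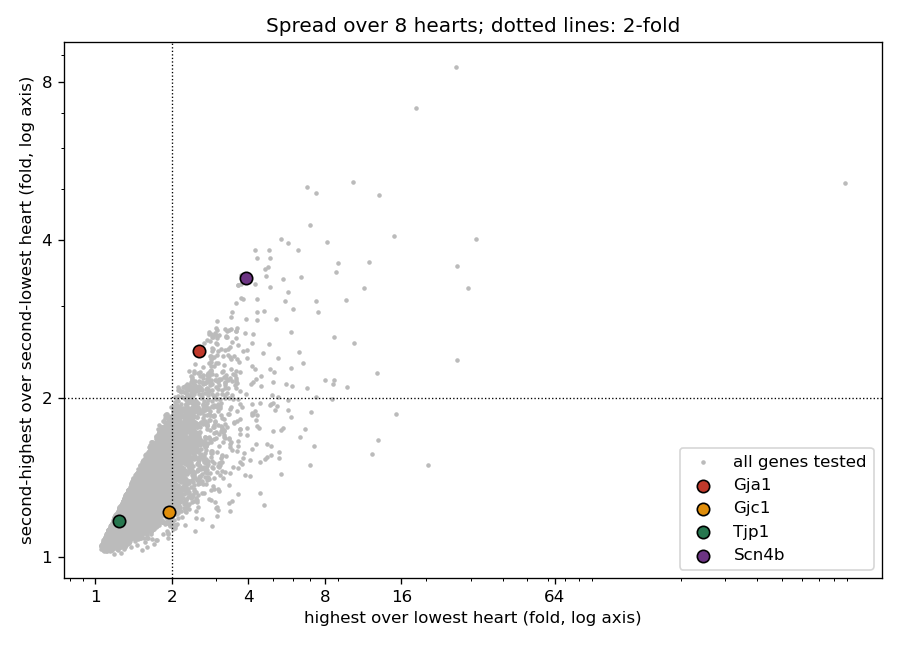
Full range as a fold (horizontal, log axis) against trimmed range as a fold (vertical, log axis) for 10909 genes in grey and the 4 described genes in colour, with dotted lines at 2-fold. Gja1 and Scn4b lie beyond both lines, and Gjc1 and Tjp1 lie below both.

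No relation between the 4 genes was detected across the 8 animals. None of the 6 pairs reached an unadjusted p under 0.05 by either coefficient, and 0 passed after Benjamini-Hochberg adjustment over the 6 pairs. The largest was Tjp1 with Scn4b, with Pearson r = -0.52 (exact two-sided permutation p = 0.193, adjusted p = 0.625), while Spearman's rho was -0.60 (exact permutation p = 0.132, adjusted p = 0.794) over 8 hearts. Its r was -0.67 without M5F12 and M5F56, the hearts farthest from the Tjp1 median.

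Gja1 with Gjc1 had r = 0.31 (exact permutation p = 0.521, adjusted p = 0.625), while rho was 0.17 (exact permutation p = 0.703, adjusted p = 0.977), and r = 0.36 without M5F5 and M5F7. Gja1 with its scaffold gene Tjp1 had r = -0.29 (exact permutation p = 0.502, adjusted p = 0.625), while rho was -0.024 (exact permutation p = 0.977, adjusted p = 0.977), and r = -0.100 without the same hearts. Gja1 with Scn4b had r = 0.35 (exact permutation p = 0.379, adjusted p = 0.625), while rho was 0.024 (exact permutation p = 0.977, adjusted p = 0.977). Its r turned to -0.36 without M5F5 and M5F7, on which the positive value rested.

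Gjc1 with Tjp1 had r = -0.37 (exact permutation p = 0.381, adjusted p = 0.625), while rho was 0.048 (exact permutation p = 0.935, adjusted p = 0.977), and r = 0.063 without M5F16 and M5F56. Gjc1 with Scn4b had r = -0.23 (exact permutation p = 0.679, adjusted p = 0.679), while rho was -0.24 (exact permutation p = 0.582, adjusted p = 0.977), and r = -0.37 without the same hearts. With 8 animals of unstated genotype, these values do not show that the genes are unrelated.

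Of 22 connexin and pannexin genes found in the table, 5 passed the count filter, 4 of the others had no count in any library, and 3 of the 5 were called by the full range, beside 13.9% of all genes tested. Besides Gja1 these were Gja3, best known from the lens, and Gja4, a connexin of arterial endothelium. Gja3 had its lowest levels in the same hearts as Gja1, 4.64 CPM in M5F5 and 5.96 in M5F7, and its highest in M5F19 at 11.9. Gja4 lay between 4.37 CPM in M5F16 and 10.5 in M5F7, the heart with the highest summed endothelial markers. Gja5, the connexin of atria, Purkinje fibres and arterial endothelium, lay between 8.61 CPM in M5F16 and 16.2 in M5F12, a full range of 1.87-fold. Gja1 was the only one of the 5 called by the trimmed range, beside 2.85% of all genes tested. The others of the 5 had mean counts of 111 to 380, beside 5888 for Gja1.

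Of the 11 sodium channel genes examined, Scn4b among them, 2 passed the filter. Scn4b alone was called, by both ranges, beside 13.9% and 2.85% of all genes tested. With 2 tested genes, that count does not describe the family. Scn7a, a sodium-sensing channel of glia and neurons, ran from 25.9 to 37.7 CPM. Scn2b reached at most 27 counts in a library, and Scn3b was at 0 in all 8.

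The partners of the sodium channel held 14 tested genes of 16, of which 4 were called by the full range, and 3 of these by the trimmed range as well, beside 13.9% and 2.85% of all genes tested. Ank2, the gene of ankyrin-B, which anchors membrane transporters, was low in M5F5 and M5F7 at 60.1 and 65.6 CPM and at 138 in M5F16. Gpd1l, which affects the surface level of the cardiac sodium channel, ran from 24.6 CPM in M5F7 and 30.0 in M5F5 to 73.7 in M5F19. Fgf12, an intracellular modulator of sodium channels, was at 2.01 CPM in M5F55 and 3.89 in M5F22 and at 6.58 to 9.15 in the other 6. Camk2d, the kinase gene that also acts on these channels, lay between 73.8 CPM in M5F5 and 152 in M5F22 and was called by the full range alone. Ank3, the gene of ankyrin-G, which brings sodium channels to the intercalated disc, was lowest in M5F7 and M5F5 at 130 and 133 CPM and highest in M5F22 at 211.

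Other partners were more even. Pkp2, a desmosomal plaque gene, ran from 210 to 300 CPM, and the spectrin gene Sptbn1 from 1812 to 2846 CPM. Slmap, a membrane protein of the T-tubules and reticulum, was at 549 CPM in M5F56 and at 756 to 959 in the other 7. The median of the 14 was 1.59-fold by the full range.

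Genes that modify, traffic or degrade the Gja1 protein, together with the cadherin and catenins beside it, made up the list with the most tested genes. Of 22 tested, the full range called 1 and the trimmed range 0, beside 13.9% and 2.85% of all genes, and their median full range was 1.30-fold, beside 1.45-fold over all genes. The called gene was Ctnna3, the cardiac alpha-T-catenin, with 22.2 CPM in M5F5, 23.8 in M5F7 and up to 46.4 in M5F22. Cdh2, the N-cadherin of intercalated discs, ran from 415 CPM in M5F7 and 494 in M5F5 to 717 in M5F19, whereas Ctnna1 and Ctnnb1 spanned 1.16-fold and 1.18-fold. Jup, plakoglobin, lay between 433 CPM in M5F56 and 654 in M5F19, and the kinase gene Prkce from 49.1 CPM in M5F7 to 80.6 in M5F16. Mapk7, another kinase gene, was at 6.90 CPM in M5F22 and 12.4 in M5F56.

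Of 12 tested scaffolds related to Tjp1, itself included, 0 were called by either range, beside 13.9% and 2.85% of all genes, while their median full range of 1.51-fold was above the 1.45-fold of all genes. Cxadr, a receptor of the disc that binds Tjp1, was at 178 CPM in M5F56 and up to 291 in M5F22. Afdn, the gene of afadin, lay between 122 CPM in M5F12 and 192 in M5F7, Magi1 from 63.9 CPM in M5F7 to 97.5 in M5F22, the junction gene Jam2 from 86.6 CPM in M5F19 to 138 in M5F12, and Cgnl1 between 68.6 CPM in M5F22 and 121 in M5F5.

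Over all 6 lists, without the 4 described genes, 14 of 68 tested genes (20.6%) had a called full range and 5 (7.35%) a called trimmed range, beside 13.9% and 2.85% of all genes tested. In 15 of the 68 (22.1%) the 2 lowest hearts were M5F5 and M5F7, as for Gja1. That pattern was also common elsewhere, with 15.6% of all genes tested. It was seen in 5 of 14 sodium channel partners, 5 of 22 regulators of Gja1 and 2 of 17 transcription factors. Of the scaffolds 2 of 11 had it, of the connexins 1 of 3 and of the sodium channel subunits 0 of 1. The difference from all genes was not tested. Among the 15 were Gja3, Ank2, Ank3, Fgf13, Gpd1l, Camk2d, Cdh2 and Ctnna3.

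**Figure D4:**
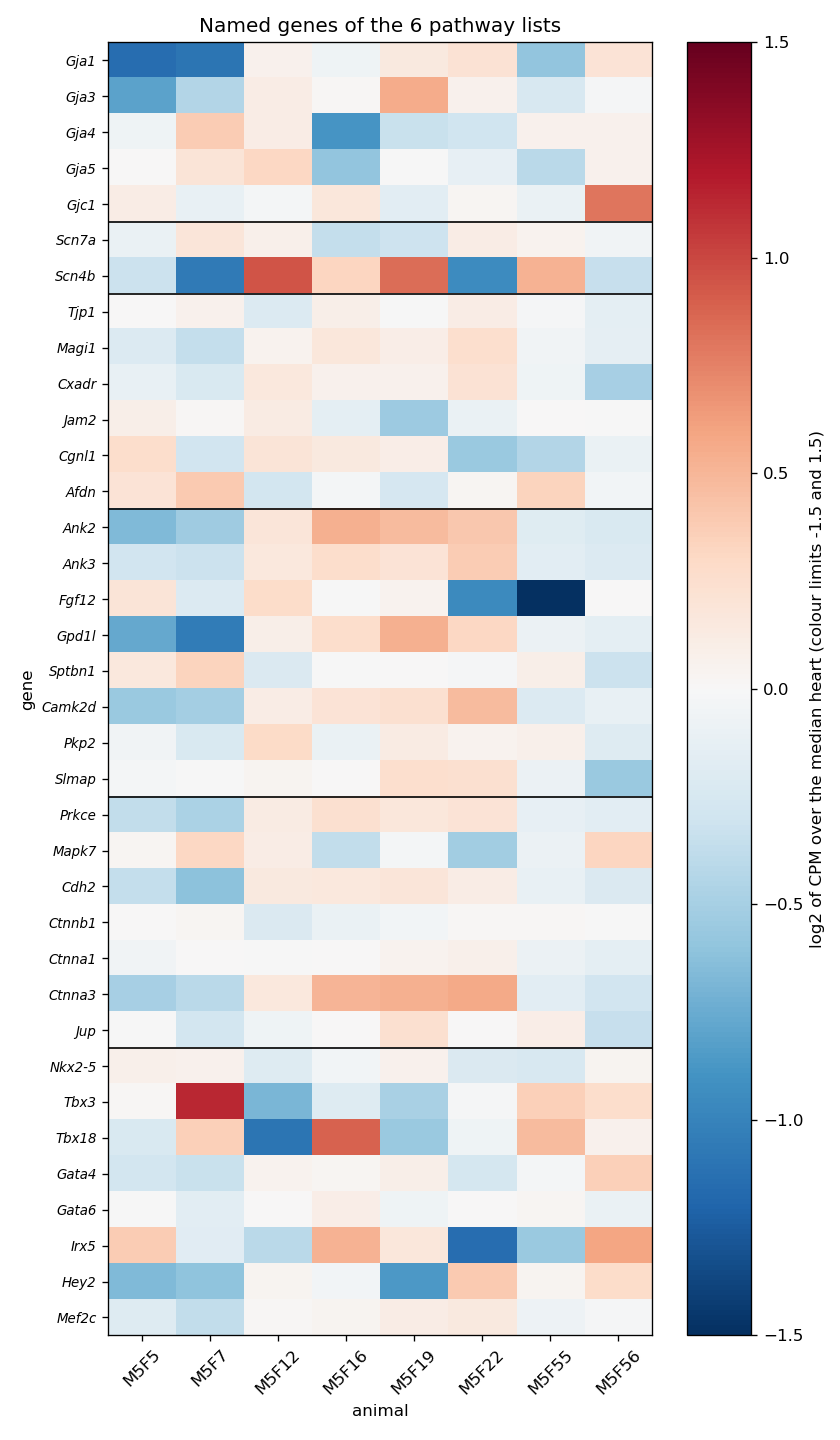
Level of the named genes of the 6 pathway lists (rows, separated by black lines into connexins, sodium channel subunits, scaffolds, sodium channel partners, regulators of Gja1 and transcription factors) in each heart (columns), as log2 of CPM over the gene's median heart. Colours end at 1.5 in either direction, which Fgf12 in M5F55 exceeds. Gja1, Ank2, Gpd1l, Camk2d and Ctnna3 are blue in M5F5 and M5F7, and the high Gjc1 of M5F56 stands alone among the connexins.

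Of 17 tested transcription factors of conduction and chamber identity, 7 had their highest level in M5F56, the heart with the high Gjc1, and 0 had their lowest there. Over all genes tested, 10.8% were highest and 11.2% lowest in that heart. As many of the factors, 7 of 17, had their lowest level in M5F7, beside 18.1% of all genes. M5F56 was singled out because of Gjc1, and no test was made. Tbx5, a T-box activator of conduction genes in the mouse, was at 34.5 CPM there and at 12.7 to 25.1 in the other 7. Gata4, a zinc finger factor of the heart, was at 130 CPM there and at 80.3 to 108 elsewhere. Irx5, an Iroquois repressor, was at 18.9 CPM in M5F56 and 17.9 in M5F16, with 5.67 in M5F22. The other 4 were Etv1, Foxo1, Id2 and Meis1.

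Tbx3, a T-box repressor of the conduction system, peaked in M5F7 at 28.6 CPM and had its lowest level, 8.11, in M5F12. Hey2, a ventricular repressor, was at 4.30 CPM in M5F19, 4.93 in M5F5 and 5.14 in M5F7 and up to 10.2 in M5F22. Tbx18 lay between 2.77 CPM in M5F12 and 11.0 in M5F16, while Nkx2-5, Gata6 and Mef2c spanned 1.25-fold, 1.20-fold and 1.43-fold. In all, 7 of the 17 were called by the full range, and Tbx18 and Irx5 (2 genes) also by the trimmed one, beside 13.9% and 2.85% of all genes tested.

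Summed cell type markers also differed between the hearts. The summed level of 13 endothelial markers was 2290 CPM in M5F7, 1970 in M5F5 and 1873 in M5F55, the 3 hearts lowest in Gja1, and 1381 to 1609 in the other 5. Of the 13, 9 were highest in M5F7, 3 in M5F5 and 1 in M5F12, beside 17.7%, 16.5% and 9.26% of all genes tested. Single endothelial markers differed in order, with Cldn5 at 7.88 CPM in M5F7, under its median of 8.62. The summed ventricular cardiomyocyte markers were highest in M5F5 (69055 CPM) and M5F7 (68749 CPM), but single markers of this list differed in order. Ryr2, the sarcoplasmic calcium release channel, had its lowest levels in the same hearts, 1128 CPM in M5F5 and 1172 in M5F7, and ran up to 1636 in M5F19. Actn2, the sarcomeric alpha-actinin, was lowest in M5F56 at 1368 CPM and next lowest in M5F7 at 1402. Per 1000 counts of the summed ventricular markers, Gja1 was at 3.02 in M5F5, 3.15 in M5F7, 4.88 in M5F55 and 7.52 to 9.06 in the other 5, a full range of 1.59 on the log2 scale. The 10 fibroblast markers summed to 1818 to 2216 CPM, lowest in M5F55 and highest in M5F7, and the 12 smooth muscle and pericyte markers to 2506 to 3385 CPM, lowest in M5F16 and highest in M5F19. No list of these 4 cell types had a marker at 0 in all libraries. The summed conduction system markers were lowest in the same 3 hearts as Gja1, at 94.1 CPM in M5F5, 98.0 in M5F55 and 99.7 in M5F7, and at 106 to 128 in the other 5. The summed macrophage markers were lowest in M5F5 and M5F7, at 73.1 and 86.2 CPM. Of the 7 tested, 5 were lowest in M5F5, 2 in M5F56 and 0 in M5F7. The shares of all genes tested were 13.3%, 11.2% and 18.1%. The part of any of these cell types in the level of Gja1 was not tested.

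In M5F56 the summed markers of conduction system cells were at 128 CPM, beside 94.1 to 128 in the other 7, and those of atrial cells were at 239 CPM, beside 163 to 1086. Of the 12 conduction markers, 5 passed the filter, Shox2 was at 0 in all libraries and Isl1 reached at most 1 count. Hcn4, the pacemaker channel, was at 17.3 CPM in M5F56, at 3.78 in M5F5 and 5.14 in M5F7, and at 15.3 to 26.7 CPM in the other 5. Per 1000 counts of the ventricular markers, Gjc1 was at 0.713 in M5F56 and at 0.325 to 0.464 in the other 7. The 7 tested macrophage markers of 9 found, the 3 tested Schwann cell and neuron markers of 10 and the 1 tested mesothelium marker of 8 summed to 73.1 to 146, 20.0 to 35.1 and 11.2 to 24.8 CPM with all found members included.

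**Figure D5:**
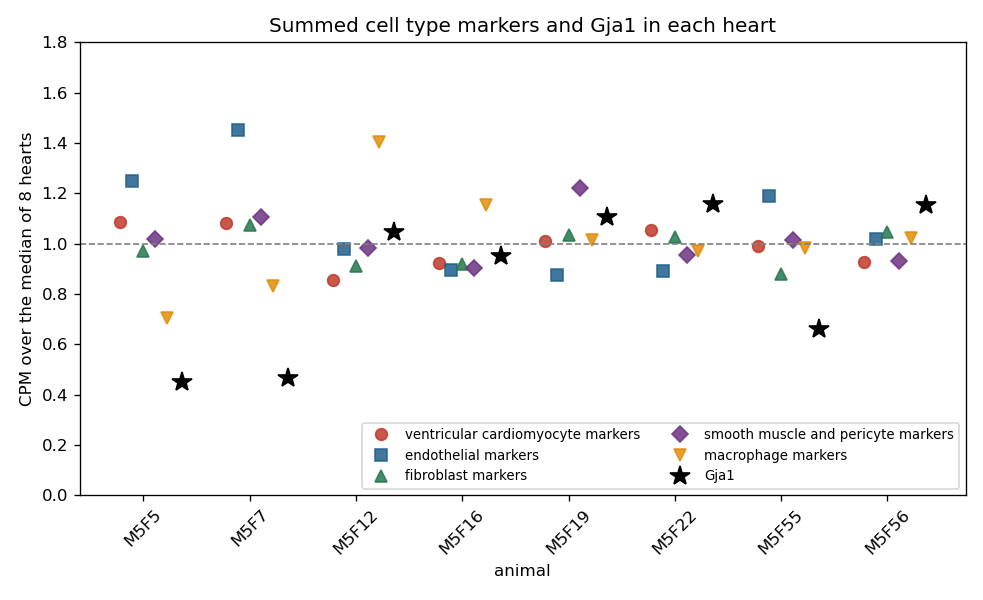
Summed CPM of the markers of 5 cell types and the CPM of Gja1, each divided by its median over the 8 hearts (vertical axis, from 0), in each heart (points set slightly apart). Gja1 lies at 0.451, 0.468 and 0.663 of its median in M5F5, M5F7 and M5F55, where the endothelial markers are high and the ventricular markers are near or above their median.

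The genes most like each of the 4 were found by Pearson r of log2 CPM over the 8 hearts, among 10908 others. With so many candidates and 8 points that share library scaling, values near 1 arise readily, and they are given as a description with no test. Closest to Gja1 were Tmx3, an oxidoreductase of the endoplasmic reticulum (r = 0.98), the kinase gene Pak2 (r = 0.98), Hmgcs1 of cholesterol synthesis (r = 0.98), Pkia, an inhibitor of protein kinase A (r = 0.98), and the neuregulin co-receptor Erbb2 (r = 0.98). Their own full ranges were narrower than that of Gja1, from 1.27-fold in Erbb2 to 1.76-fold in Hmgcs1. The most opposite were Ccar1, Mcrip2 and Acot7, at r = -0.98, -0.97 and -0.97. In the same order, Scn4b stood at place 3565 from the top for Gja1, Gjc1 at 3754 and Tjp1 at 6732.

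For Gjc1 the closest were Golph3l (r = 0.96), Map4k5 (r = 0.95), Nckap5l (r = 0.94), Arfip1 (r = 0.94) and Zdhhc15 (r = 0.94), each highest in M5F56. The likeness leaned on that heart for some of them, since without M5F56 r was 0.69 for Nckap5l and Zdhhc15 and 0.91 for Golph3l. The most opposite were Tpp1, a lysosomal protease, the constitutive chaperone gene Hspa8 and the repressor gene Nfil3, each lowest in M5F56. Hspa8 was at 1992 CPM there, with a median of 3016.

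Tjp1 was closest to Dhtkd1, a mitochondrial dehydrogenase gene (r = 0.99), followed by Sh2b3 (r = 0.92), Mpdz, a scaffold gene of the same list (r = 0.91), Mpv17l (r = 0.90) and Tecr (r = 0.90), each lowest in M5F12. The most opposite were Gnai2 (r = -0.97), Lcp1 (r = -0.97) and Lypla1 (r = -0.93), each highest in M5F12. Lcp1, the plastin of leukocytes, was at 25.5 CPM there, with a median of 16.3. Scn4b was closest to the formin gene Diaph1 (r = 0.96), Sugp2 (r = 0.94), Derl1 (r = 0.93), Ssh1 (r = 0.93) and Cnot4 (r = 0.92), whose full ranges were 1.12-fold to 1.22-fold. Its most opposite genes were Ap5m1 (r = -0.98), Tmco1 (r = -0.95) and Trmu (r = -0.94).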

How the data were processed

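The table deposited by the authors holds counts, whole numbers per gene and library, taken as not normalized because the totals differ. The submitters' processing notes name RSEM, Bowtie2 2.2.5 and HISAT2 2.0.4 without roles. Build, annotation, strand use and any rounding of RSEM estimates were not given in the sources used here, so reads shared by near-identical genes may be split. All 8 columns matched a library label. Of 4676 LOC identifiers, 397 took a symbol by gene number from the RefSeq table for BCM_Maur_2.0.

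Counts were scaled by TMM (edgeR 4.0.16, R 4.3.3), with factors from 0.960 to 1.05. Log2 CPM had 0.5 as prior count. A gene was tested if its counts averaged 50 or more. Permutation p-values ran over all 40320 pairings of 8 libraries. Alternatives were DESeq2 1.42.0 size factors, total counts, other filters and prior counts, and leaving out each library. Scaling to ventricular markers was added after seeing the data. Data of 10909 genes over 8 libraries were simulated with counting error alone and no variation between animals. The full range called 98 of 100 genes changed 2-fold in 4 libraries and 100 of 100 changed 4-fold. The trimmed range called 73 and 100, and neither called any of 10709 unchanged genes. Of these, 5 passed the chi-square test, against 86.4% of genes in the real data. The simulation therefore gives no rate of calls that arise from variation between animals.

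The members and lists (15 lists) were chosen with earlier results of these data known. Named were the 4 genes, of each pathway list the 4 members highest in median CPM and the 4 widest in trimmed range (2 each for cell types, given mainly as sums), and the 5 most alike and 3 most opposite genes with a symbol. Fgf13, Tbx5, Scn2b, Scn3b, Etv1, Foxo1, Id2, Meis1, Bmp10, Sln, Shox2 and Isl1 were added after their values were seen. A few list genes are not reported here and were left out of the list counts.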

Additional observations from a re-analysis of the deposited data

Results flagged for a closer look

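Gjc1 in M5F56, at 42.0 CPM, stood apart from the other 7 libraries, which lay between 21.5 and 27.1 CPM. Its gap to the next library was 0.724 of the whole range, above Dixon's 95% critical value for 8 values. About 1 in 20 sets of values passes this limit by chance, 8 ends of ranges were examined, and the 8 libraries are not known to share a genotype.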

How the results depend on the processing

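Gja1 and Scn4b kept their calls by the full range, and Tjp1 stayed uncalled by both ranges, under each alternative run in which they passed the filter. Gjc1 and Scn4b do not reach a mean count of 500, and Scn4b falls under 50 without M5F12 (48.3) or M5F19 (49.0). The full range of Gjc1 passed the threshold of 1 on the log2 scale with total counts (1.09) and when scaled to the ventricular markers (1.13). The trimmed range of Gja1 ran from 0.80 to 1.30 on leaving out 1 library and lost its call without M5F5 or M5F7. The counts of genes called by the full and the trimmed range were 1519 and 311 of 10909 genes tested. Unfiltered, they were 3846 and 1938 of 16958 genes. When a mean of 500 counts was required, they were 324 and 86 of 4683 genes. The share called fell as the required mean rose, so the number of genes tested does not alone account for these counts. The shares of 13.9% and 2.85% therefore belong to the filter of 50. Leaving out 1 library gave 1195 to 1452 and 143 to 276. A trimmed range over fewer libraries tends to be narrower, which holds for each of these runs. The lowest trimmed counts were 143 without M5F7 and 169 without M5F5, and the other runs gave 215 to 276. No pair of the 4 genes passed the adjusted threshold under the other scalings, the other prior count or on leaving out 1 library. The filters do not bear on the pairs, and without M5F55 only 3 of the 6 pairs were computed, since Gja1 then falls into separate clusters. Leaving out 1 library moved r from -0.029 to 0.45 for Gja1 with Gjc1 and from -0.67 to 0.26 for Gjc1 with Tjp1, the sign turning without M5F56. Scaled to the ventricular markers, which gives both genes of a pair the same denominator, r turned positive for Gja1 with Tjp1 (0.52), Gjc1 with Tjp1 (0.18), Gjc1 with Scn4b (0.12) and Tjp1 with Scn4b (0.32). Depth limits Scn4b most, with intervals as wide as 0.999 to 2.36 CPM. No paired analysis was possible because the labels give no groups.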
